A study of Mus musculus with 9 samples.

Results

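The genes described here encode integrins, laminins and the glycoproteins that lie with them in basement membranes and other cell-adhesive matrix. They were chosen by name, as the rows of the counts table whose symbol is that of an integrin alpha or beta subunit or of a laminin alpha, beta or gamma chain, together with Nid1, Nid2, Hspg2, Agrn, Fn1, Tnc and Vtn. The 3 genes of integrin-binding proteins that match by name (Itgb1bp1, Itgb1bp2 and Itgb3bp) were not counted. This gave 46 members of 48679 rows, or of 48587 rows without spike-in controls: 28 with an Itg symbol, 11 laminin chains and 7 others. The name rule also takes in Itgbl1, an integrin beta-like secreted protein that forms no receptor, and Itgb2l, a beta 2-like gene.

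The samples were retinas of C57BL/6J mice aged 12 weeks. In RVO eyes, all large veins were closed by laser (50 mW, 50 µm spots, 2.5 s) after an intraperitoneal dose of 200 mg/kg eosin Y, a photosensitizer. The fellow eyes (control) received the same number of laser spots between the large vessels, so that RVO and control retinas shared the mouse, the eosin Y, the anesthesia and the laser energy. Untreated eyes came from another group of mice without laser treatment, and the laser-treated ones were collected at d2. No eosin Y dose is given for the untreated mice. In comparisons with them, laser, eosin Y and the mice themselves cannot be told apart. Each of the 9 samples was a pool of 6 retinas from 6 mice, with 3 pools per group, so n is 3 throughout and counts pools. Laser damage was thus part of both treated groups. The authors report that part of the closed veins re-opened in the following days, and show a re-opened vein at d2 from a preliminary experiment. Not all veins of the RVO pools need have been closed at collection.

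Integrins are receptors of one alpha and one beta subunit that span the cell membrane, bind matrix proteins or counter-receptors on other cells, and link them through talin and kindlin to the actin cytoskeleton. Laminins are trimers of an alpha, a beta and a gamma chain that polymerize into the sheet of a basement membrane, which nidogens and heparan sulfate proteoglycans such as perlecan and agrin tie to the type IV collagen network. In the retina, basement membranes form the inner limiting membrane under the Mueller cell end feet and sheathe the endothelial cells and pericytes of each vessel. Integrins of the beta 2 family are found on leukocytes, which use them to adhere to the endothelium and leave the vessel.

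Total counts were 12377572 to 15245869 in untreated, 18897218 to 23419497 in control and 21022997 to 28993921 in RVO pools. Rod marker genes summed to 76918 to 78547 CPM (counts per 1e6 counts of a pool, scaled by TMM factors, a correction for library composition) in untreated pools, as the tissue label requires, and to 47354 to 58745 and 39819 to 43775 CPM in control and RVO pools. The chi-square per degree of freedom between pools of 1 group was 3.34 to 59.5, beyond sampling noise. RVO replicate 2 and control replicate 1 stood apart by their lens marker genes, which summed to 3613 and 1893 CPM against 127 to 316 CPM in the other laser-treated and 2.21 to 17.9 CPM in the untreated pools. RVO replicate 2 also stood apart from the other RVO pools by more than they did from each other, and each count that changed by more than 1.5 times without a library is given with that value. Because whole retinas were used, fewer cells of a type and less RNA per cell cannot be told apart.

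Of the 46 members, 42 passed the filter for low counts and were tested in each comparison, whereas Itgb6, Itga11, Itgad and Itgb2l were not tested. Itgb6, the beta subunit of an epithelial integrin, had 2 to 6 counts and Itga11, a collagen-binding subunit, had 4 to 11 counts per pool. Itgad and Itgb2l, which are of the leukocyte kind, had at most 4 counts and 1 count per pool, all of them in RVO pools.

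Per kb of exon, Vtn was by far the most abundant member in each group, with 403 ± 11.6, 495 ± 39.3 and 424 ± 11.4 CPM per kb (mean ± SD) in untreated, control and RVO pools. Vtn encodes vitronectin, a plasma and matrix protein bound by alpha V integrins. In untreated retinas it was followed by Itgb1 with 16.9 ± 0.948, Itgb5 with 12.5 ± 0.931, Itgb8 with 7.62 ± 0.280, Agrn with 7.56 ± 0.242 and Itgav with 6.88 ± 0.223 CPM per kb. Of these neighbours, Itgb8 and Agrn did not differ beyond their spread. In RVO pools, Agrn (29.4 ± 4.30 CPM per kb) and Itgb1 (29.2 ± 1.97) came next after Vtn with overlapping spreads, followed by Itgb5 (15.9 ± 1.53). Fn1 moved from place 14 in untreated to place 6 in RVO pools, while Itgb8 moved from place 4 to place 16.

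The 46 members together made up 1440.2 to 1461 CPM in untreated, 1854 to 1936 CPM in control and 2025 to 2082 CPM in RVO pools. Without Vtn, the sums were 615 to 635, 846 to 923 and 1174 to 1217 CPM, so that no pool of a group overlapped with another group. Vtn alone accounted for 55.9% to 57.9% of the members' CPM in untreated, 50.2% to 56.3% in control and 41.2% to 42.8% in RVO pools. The laminin chains summed to 92.4 to 93.9 CPM in untreated, 130.0 to 142 CPM in control and 158 to 172 CPM in RVO pools.

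Compared with untreated retinas, 26 members were higher and 2 were lower in RVO retinas (quasi-likelihood test of edgeR, adjusted by Benjamini-Hochberg over all 16380 genes tested, threshold 0.01). The share called among all genes tested was 27.4% for higher and 24.6% for lower expression, whereas the 26 members amount to 61.9% of the 42 tested. The median log2 fold change of the members was 1.35, beside 0.00811 for all genes tested. In control retinas, 23 members were higher and 2 were lower than in untreated retinas, where 27.2% of all genes were called higher and 25.2% lower, and the median of the members was 0.84, beside 0.013 for all genes. The 2 comparisons share the untreated pools. Of the members, 20 were called higher in both and Itgb8 and Itgbl1 were called lower in both. The heat map displays 41 of the tested members by role and pool.

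**Figure D1:**
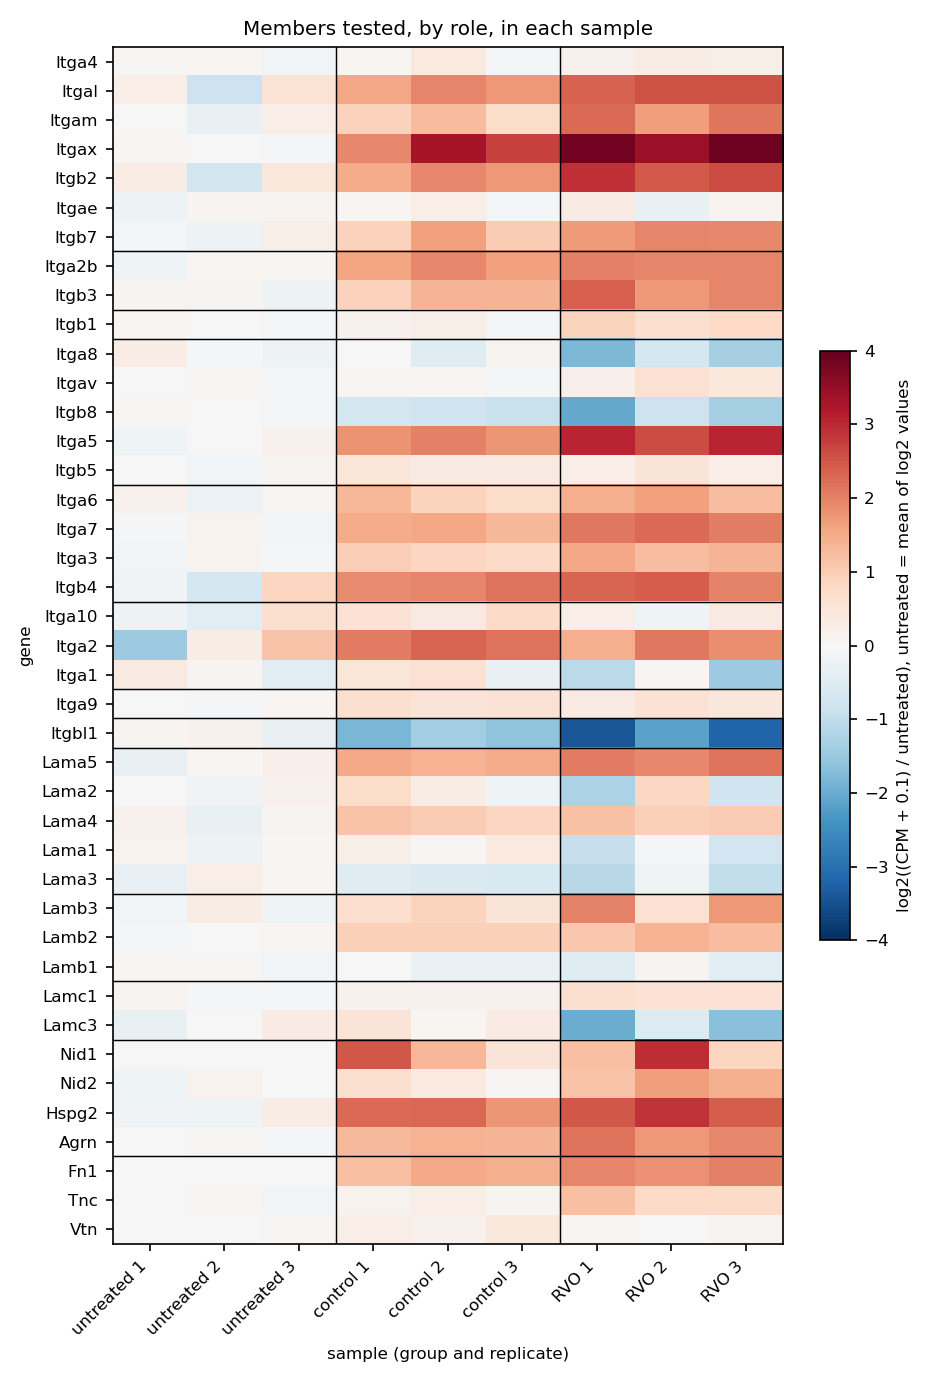
Expression of 41 members (rows, grouped by role between black lines) in each of the 9 pools (columns), as the log2 ratio of CPM + 0.1 to the mean of the log2 values of the untreated pools (red higher, blue lower). Most rows turn red from untreated over control to RVO pools, Itgb8 and Itgbl1 turn blue, and Nid1 is reddest in control replicate 1 and RVO replicate 2.

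The groups of pools did not overlap for 34 of the 42 members between RVO and untreated retinas, 30 of them higher and 4 lower, and for 30 members between control and untreated retinas, 27 higher and 3 lower. Over all genes tested, 73.4% and 70.0% did not overlap in these comparisons. Leaving out RVO replicate 2 raised the number of members lower than in untreated retinas from 2 to 9, as Itga8, Itga1, Lama1, Lama2, Lama3, Lamb1 and Lamc3 were then called as well. The share of all genes called lower also rose in that fit, from 24.6% to 31%, and that called higher from 27.4% to 33.3%. Without RVO replicate 3, or without any 1 of the untreated pools, 1 member was lower (Itgbl1 in each of these), where 15.8% to 17.8% of all genes were called lower.

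Most of the leukocyte integrins were higher in RVO than in untreated retinas. Of the 7 tested, 5 rose (Itgax, Itgb2, Itgal, Itgb7 and Itgam), with a median log2 fold change of 2.17 over the 7. In control retinas, 4 of 7 rose with a median of 1.45. Over all genes tested, 27.4% were called higher in RVO and 27.2% in control than in untreated retinas. The counts of members called in the roles below are to be read beside these shares. Itgam encodes the alpha M subunit (CD11b) of the complement receptor of monocytes, neutrophils and microglia. Its expression was 5.54, 4.45 and 6.57 CPM in untreated, 10.4, 13.2 and 9.16 CPM in control and 26.3, 17.5 and 24.4 CPM in RVO pools. The 3 groups did not overlap, with a log2 fold change of 2.07 ± 0.21 (SE) in RVO and 0.99 ± 0.17 in control retinas against untreated retinas (edgeR, adjusted p = 8.05e-05 and 2.75e-04). Itgb2, the common beta subunit (CD18) of these receptors, was at 2.36, 1.09 and 2.57 CPM in untreated, 5.52, 7.43 and 6.44 CPM in control and 14.8, 10.7 and 11.9 CPM in RVO pools. Again each RVO pool was above each control pool and each control pool above each untreated pool, with log2 fold changes of 2.67 ± 0.28 and 1.70 ± 0.24 (edgeR, adjusted p = 1.13e-04 and 5.39e-05).

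Itgax, which encodes CD11c of dendritic cells and activated microglia, had 1 count in each untreated pool and 13 to 34 counts in control and 43 to 79 counts in RVO pools. Measured against a floor of 3 counts per library, RVO retinas were at least 9.56-fold higher than untreated ones, and control retinas at least 4.71-fold higher. Itgal, the alpha subunit of LFA-1, the main leukocyte receptor for ICAM-1, was at 0.454, 0.156 and 0.571 CPM in untreated, 1.22, 1.67 and 1.42 CPM in control and 2.23, 2.55 and 2.55 CPM in RVO pools. It was higher in all laser-treated pools than in all untreated ones, with log2 fold changes of 2.63 ± 0.35 in RVO and 1.85 ± 0.38 in control retinas. Itgb7, which pairs with alpha 4 or alpha E on lymphocytes, was at 0.272, 0.234 and 0.357 CPM in untreated, 0.633, 1.11 and 0.670 CPM in control and 1.15, 1.40 and 1.36 CPM in RVO pools. Its log2 fold change was 2.17 ± 0.31 in RVO retinas (edgeR, adjusted p = 5.01e-04) and 1.45 ± 0.43 in control retinas, where it missed the threshold (adjusted p = 0.0104).

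Itga4, the alpha subunit of VLA-4, had the highest level per kb of this role, with 57.7, 59.0 and 52.1 CPM in untreated, 59.1, 73.4 and 54.3 CPM in control and 62.7, 69.1 and 65.7 CPM in RVO pools. The pools overlapped between control and each other group, and neither comparison with untreated retinas passed the threshold (edgeR, adjusted p = 0.0212 for RVO and 0.168 for control retinas). Of the exon bases of Itga4, 8.04% overlap those of Cerkl on the opposite strand, a gene with a median of 783 counts per pool, so the value of Itga4 is uncertain where reads were counted without strand. Itgae, the partner of Itgb7 on intraepithelial lymphocytes, was at 0.726 to 0.938 CPM in untreated, 0.837 to 1.06 CPM in control and 0.679 to 1.12 CPM in RVO pools, with log2 fold changes of 0.13 ± 0.30 and 0.11 ± 0.29. Itgal, Itgam, Itgax and Itgad lie on chromosome 7, where Itgam and Itgax are 11.1 kb apart. The exons of Itgam are shared in part with Gm49368, an annotated gene that is not a row of the counts table.

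Marker genes of leukocytes moved with these integrins. The 8 monocyte and macrophage markers summed to 6.41 to 6.79 CPM in untreated, 31.8 to 45.9 CPM in control and 74.8 to 92.5 CPM in RVO pools. Of these, 7 of 8 were called higher in RVO than in untreated retinas, beside 27.4% of all genes tested. The 8 neutrophil markers summed to 0.0781 to 0.571, 5.44 to 18.4 and 34.5 to 85.4 CPM, of which Cxcr2, Retnlg, Mmp8 and Ly6g were at 0 in all untreated pools, while Ly6g stayed at or under 0.16 CPM in RVO pools. The 6 markers of homeostatic microglia went the other way, with 48.4 to 82.5, 20.8 to 24.9 and 6.05 to 15.6 CPM, and the 6 T cell markers summed to at most 1.26 CPM in any pool. The part of these cells in the values of the leukocyte integrins was not tested.

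To show the region around the start of the neighbouring genes Itgam and Itgax, both higher in laser-treated retinas, their promoters are given from 250 bases before to 50 bases after the start annotated by RefSeq (build GRCm38.p6, both on the + strand of chromosome 7, chr7:128062390-128062689 and chr7:128129300-128129599). Letters in capitals mark matches on either strand to GGGCGG (GC box), TGANTCA (AP-1), GAGGAA (purine-rich core bound by PU.1) and the NF-kB motif. Of 32851 promoters of this length, 35.7% held the GC box, 7.81% the AP-1 letters, 28.3% the PU.1 core and 20.7% the NF-kB motif. The NF-kB motif was a loose pattern of 10 bases, of which those in the middle could be any base. Such matches describe the letters and are no evidence of binding.
Itgam: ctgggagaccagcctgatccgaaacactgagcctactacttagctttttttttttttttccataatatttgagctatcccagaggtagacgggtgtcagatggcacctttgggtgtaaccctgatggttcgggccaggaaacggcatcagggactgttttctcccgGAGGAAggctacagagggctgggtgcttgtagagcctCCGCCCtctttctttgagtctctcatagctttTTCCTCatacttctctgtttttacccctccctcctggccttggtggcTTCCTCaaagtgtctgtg
Itgax: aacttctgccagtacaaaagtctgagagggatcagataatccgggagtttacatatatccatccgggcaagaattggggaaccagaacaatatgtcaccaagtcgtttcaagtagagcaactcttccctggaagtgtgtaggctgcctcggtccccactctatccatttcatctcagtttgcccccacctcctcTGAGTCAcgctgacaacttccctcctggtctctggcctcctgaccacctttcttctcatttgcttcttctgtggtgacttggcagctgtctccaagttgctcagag

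The Itgam promoter held 3 matches to the PU.1 core and 1 to the GC box, and that of Itgax held 1 match to the AP-1 letters, 56 bases before the start, and none to the other motifs. Of the 46 members, 30 had a promoter in the RefSeq table (35 promoters in all). Among these 35, the GC box was found in 19, the PU.1 core in 18, the NF-kB motif in 12 and the AP-1 letters in 3. The TATA box letters TATAAA were in 3 of the 35, beside 13.6% of all promoters. Windows of the same gene overlapped for Tnc and Lamb3, so that 1 site can count in 2 promoters. By gene, the GC box was in 16 of the 30, the PU.1 core in 17, the NF-kB motif in 10, the AP-1 letters in 3 and the TATA box letters in 2.

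The 2 members of the platelet role rose in both laser-treated groups. Itga2b encodes the alpha subunit and Itgb3 the beta subunit of the fibrinogen receptor of platelets, and Itgb3 also pairs with alpha V on endothelial and other cells. Itga2b was at 1.54, 1.88 and 1.86 CPM in untreated, 5.38, 6.92 and 5.65 CPM in control and 7.39, 7.09 and 7.12 CPM in RVO pools. All laser-treated pools were above all untreated ones, with log2 fold changes of 2.06 ± 0.17 and 1.77 ± 0.19 in RVO and control retinas, and RVO and control retinas differed by 0.27 ± 0.14 (edgeR, adjusted p = 0.177). Itgb3 was at 0.545, 0.547 and 0.429 CPM in untreated, 1.04, 1.47 and 1.46 CPM in control and 3.06, 1.91 and 2.24 CPM in RVO pools, again without overlap of the 3 groups, and its log2 fold changes were 2.28 ± 0.31 and 1.40 ± 0.32. The 8 platelet markers summed to 3.50 to 3.72 CPM in untreated, 4.69 to 6.69 CPM in control and 9.94 to 16.2 CPM in RVO pools. Among them, Pf4 and Ppbp were at or under 0.09 CPM in untreated pools and at 1.87 to 7.17 CPM in RVO pools, whereas Gp1ba was at 2.27 to 3.00 and 2.15 to 2.96 CPM. The part of platelets in the values of Itga2b and Itgb3 was not tested.

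Among the integrin subunits of tissue cells, Itga5 had the largest increase from untreated to RVO retinas. Itga5 encodes the alpha subunit of the classical fibronectin receptor, and its ligand Fn1 rose along with it. Expression of Itga5 was 1.998, 2.27 and 2.57 CPM in untreated, 8.14, 9.50 and 7.87 CPM in control and 19.4, 14.4 and 19.4 CPM in RVO pools. The pools of the 3 groups were apart, with an increase of 7.91-fold in RVO (log2 fold change 2.98 ± 0.19; edgeR, adjusted p = 1.20e-05) and of 3.74-fold in control retinas (log2 fold change 1.90 ± 0.16; adjusted p = 8.86e-07). Itgb1, the beta subunit shared by most matrix receptors, was at 72.6, 69.9 and 65.0 CPM in untreated, 78.4, 81.0 and 67.5 CPM in control and 127, 111 and 119 CPM in RVO pools. RVO pools exceeded untreated pools by 1.76-fold (log2 fold change 0.82 ± 0.08), while control and untreated pools overlapped (log2 fold change 0.15 ± 0.07; edgeR, adjusted p = 0.0995).

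Itgav, the alpha subunit of the vitronectin receptors, followed the pattern of Itgb1 with 71.2 to 75.9 CPM in untreated, 70.0 to 77.9 CPM in control and 85.9 to 112 CPM in RVO pools. Its log2 fold change from untreated retinas was 0.46 ± 0.10 in RVO (edgeR, adjusted p = 0.00418) and 0.03 ± 0.06 in control retinas (adjusted p = 0.673). The 2 tested beta subunits that pair with alpha V in this role went in opposite directions. Itgb5 was at 44.3, 41.1 and 47.7 CPM in untreated, 61.6, 55.5 and 56.7 CPM in control and 53.4, 62.9 and 53.5 CPM in RVO pools. It was higher in all laser-treated than in all untreated pools, by 0.38 ± 0.10 and 0.40 ± 0.07 on the log2 scale, but the direction turned with the trends of gene length and GC content removed, to -0.20 and -0.13 (adjusted p = 0.0913 and 0.0939). Itgb8, whose product with alpha V activates latent TGF-beta, was at 86.6, 85.5 and 80.8 CPM in untreated, 52.0, 47.9 and 45.4 CPM in control and 20.2, 47.9 and 33.5 CPM in RVO pools. It fell by 1.29 on the log2 scale in RVO retinas (SE 0.26; edgeR, adjusted p = 0.00257) and by 0.78 in control retinas (SE 0.06; adjusted p = 5.72e-07). RVO replicate 2 was at the upper edge of the RVO pools and within the range of the control pools.

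Itga8, a receptor subunit of mesenchymal cells for nephronectin, was at 1.07 to 1.54 CPM in untreated, 0.859 to 1.34 CPM in control and 0.287 to 0.722 CPM in RVO pools. It missed the threshold in RVO retinas, with a log2 fold change of -1.37 ± 0.38 (edgeR, adjusted p = 0.0122), and was -0.10 ± 0.28 in control retinas. Itga9, which binds tenascin C and VCAM-1, was at 9.35, 8.99 and 10 CPM in untreated, 14.8, 13.4 and 14.2 CPM in control and 12.0, 14.2 and 12.8 CPM in RVO pools. It rose slightly in both, by 0.49 ± 0.12 and 0.60 ± 0.10 on the log2 scale, and the RVO and control pools overlapped. Itgbl1 had the largest decrease of all members. Its values were 12.8, 13.2 and 9.64 CPM in untreated, 3.26, 4.45 and 3.81 CPM in control and 1.02, 2.59 and 1.19 CPM in RVO pools, without overlap of the groups, and it fell by 2.88 on the log2 scale in RVO (SE 0.34; edgeR, adjusted p = 1.74e-04) and by 1.61 in control retinas (SE 0.16; adjusted p = 2.80e-06).

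All 4 subunits of the laminin-binding integrins rose in both laser-treated groups, with median log2 fold changes of 1.83 in RVO and 1.25 in control retinas. The shares of all genes called higher were 27.4% and 27.2%. Itga3, whose product binds laminin and is found on vessels and glia, had the highest level per kb of the 4 in RVO pools and was at 16.5, 20 and 17.5 CPM in untreated, 35.4, 32.9 and 30.6 CPM in control and 52.2, 42.7 and 46.4 CPM in RVO pools. Its log2 fold changes were 1.42 ± 0.11 and 0.89 ± 0.09, and the 3 groups were apart. Itga7, known from muscle and also expressed on vascular smooth muscle and glia, was at 4.36, 5.001 and 4.21 CPM in untreated, 12.8, 13.5 and 11.4 CPM in control and 19.8, 21.9 and 18.9 CPM in RVO pools. It increased 4.55-fold in RVO and 2.81-fold in control retinas (log2 fold changes 2.19 ± 0.13 and 1.49 ± 0.13; edgeR, adjusted p = 9.88e-06 and 9.53e-07). Itga6, the alpha subunit of endothelial and epithelial laminin receptors, was at 6.02 to 7.90 CPM in untreated, 11.6 to 17.7 CPM in control and 16.5 to 22.0 CPM in RVO pools, with log2 fold changes of 1.48 ± 0.16 and 1.02 ± 0.17. Itgb4, its partner in hemidesmosomes, was lower in level, at 0.272, 0.156 and 0.643 CPM in untreated, 1.45, 1.52 and 1.76 CPM in control and 1.98, 2.12 and 1.54 CPM in RVO pools. It was higher in all laser-treated than in all untreated pools, by 2.37 ± 0.41 and 2.09 ± 0.39 on the log2 scale.

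Of the collagen-binding integrins, 1 of 3 tested was called in any comparison. Itga2, whose product binds fibrillar collagen on platelets and epithelia, was at 0, 0.234 and 0.50 CPM in untreated, 1.04, 1.26 and 1.13 CPM in control and 0.637, 1.06 and 0.879 CPM in RVO pools. Its increase in control retinas was called (log2 fold change 2.10 ± 0.50; edgeR, adjusted p = 0.00258) but not that in RVO retinas (1.70 ± 0.61; adjusted p = 0.0354), and the difference between RVO and control retinas was -0.42 ± 0.25 (adjusted p = 0.223). Itga10, a subunit best known from cartilage, had the highest level per kb of this role with 2.03 to 4.36 CPM in untreated, 3.59 to 4.73 CPM in control and 2.46 to 3.61 CPM in RVO pools, and its log2 fold changes were 0.13 ± 0.31 and 0.51 ± 0.25. Of its exon bases, 33.5% are shared with Gm42957 on the same strand, which had a median of 1 count. Itga1, which lies 21.0 kb from Itga2 on chromosome 13, was at 1.14 to 2.09 CPM in untreated, 1.30 to 2.53 CPM in control and 0.528 to 1.70 CPM in RVO pools, with -0.72 ± 0.46 in RVO and 0.32 ± 0.31 in control retinas on the log2 scale.

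**Figure D2:**
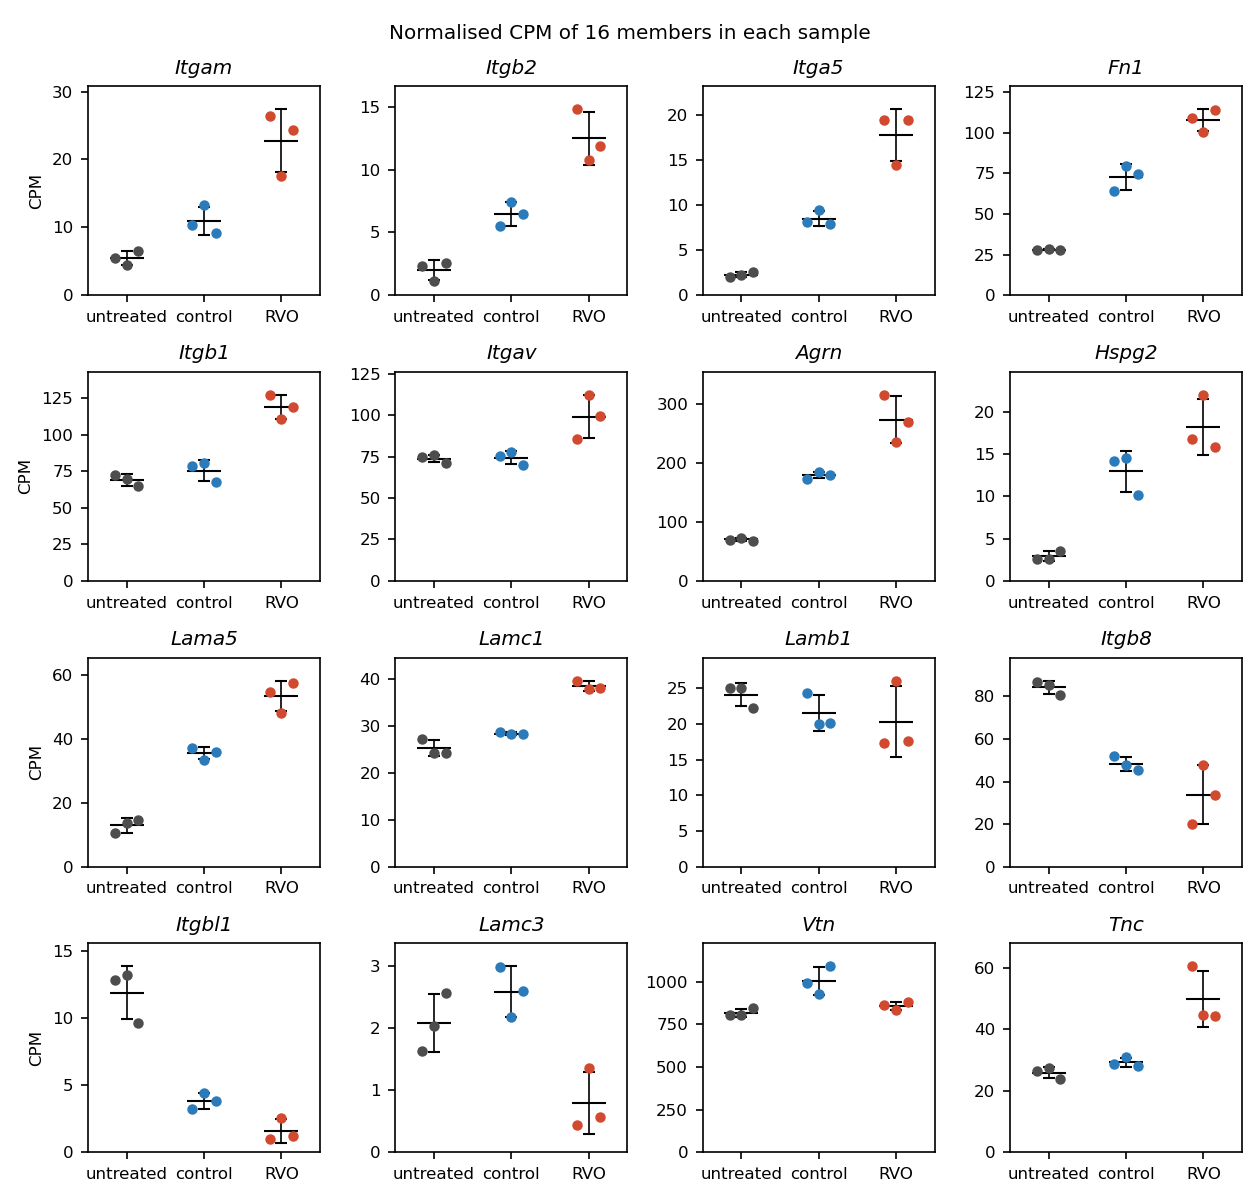
CPM of 16 members in the 3 pools of each group (points), with the mean (long dash) and SD (bars), each panel on a linear axis from 0. Itgam, Itgb2, Itga5, Fn1, Agrn, Hspg2 and Lama5 rise in steps without overlap of the groups, in Itgb1, Lamc1 and Tnc the RVO pools lie above the control and untreated pools, which lie close to each other, and Itgbl1 falls in steps.

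Of the 10 laminin chains described here, 4 rose in RVO retinas (Lama4, Lama5, Lamb2 and Lamc1) and 3 in control retinas (the same without Lamc1). None was called lower in either, and the median log2 fold changes over the 10 were 0.25 and 0.34. Over all genes tested, 27.4% and 27.2% were called higher and 24.6% and 25.2% lower. The 3 of 10 in control retinas are near the share called higher. Lama5, the alpha chain of the laminins of mature vessels and of the inner limiting membrane, was at 10.4, 13.7 and 14.7 CPM in untreated, 37.2, 33.5 and 35.9 CPM in control and 54.9, 48.3 and 57.5 CPM in RVO pools. The 3 groups were apart, and the increase was 4.22-fold in RVO and 2.76-fold in control retinas (log2 fold changes 2.08 ± 0.14 and 1.47 ± 0.11; edgeR, adjusted p = 1.43e-05 and 3.37e-07). Lama4, the other alpha chain of endothelial basement membranes, was at 1.48 to 2.09 CPM in untreated, 3.43 to 4.16 CPM in control and 3.65 to 4.27 CPM in RVO pools, with like log2 fold changes of 1.11 ± 0.21 and 1.05 ± 0.20 and overlapping RVO and control pools.

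Lama1, the alpha chain of embryonic basement membranes and of the inner limiting membrane, was at 5.24 to 6.72 CPM in untreated, 6.27 to 7.87 CPM in control and 3.15 to 5.78 CPM in RVO pools. Its log2 fold change from untreated retinas was -0.52 ± 0.25 in RVO and 0.25 ± 0.14 in control retinas, neither of which was called (edgeR, adjusted p = 0.101 and 0.149). Lama2, the alpha chain of muscle and glial basement membranes, was at 2.03 to 2.50 CPM in untreated, 1.97 to 3.80 CPM in control and 0.860 to 3.99 CPM in RVO pools, where RVO replicate 2 was at the top and the other RVO pools were below all others. Lama3, the alpha chain of laminin of epithelia, was at 1.998 to 3.05 CPM in untreated, 1.63 to 1.76 CPM in control and 1.12 to 2.29 CPM in RVO pools, with log2 fold changes of -0.72 ± 0.33 and -0.59 ± 0.22.

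Of the beta chains, Lamb2, the beta chain of the mature retinal and vascular laminins, was at 14.2, 15 and 15.6 CPM in untreated, 28.9, 29.1 and 29.2 CPM in control and 31.7, 39.7 and 35.6 CPM in RVO pools. It rose by 1.28 ± 0.11 and 0.97 ± 0.08 on the log2 scale, with no overlap of the groups. Lamb1, the other widely expressed beta chain, was not called in either comparison, with 22.2 to 25.1 CPM in untreated, 20.01 to 24.4 CPM in control and 17.3 to 26.1 CPM in RVO pools and log2 fold changes of -0.21 ± 0.17 and -0.14 ± 0.10. Lamb3, part of the laminin of epithelia, was at 0.429 to 0.625 CPM in untreated, 0.753 to 1.01 CPM in control and 0.807 to 2.26 CPM in RVO pools, and missed the threshold in RVO retinas (log2 fold change 1.75 ± 0.47; edgeR, adjusted p = 0.0106).

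Of the gamma chains, Lamc1, present in most laminins, had the highest level per kb and was at 27.2, 24.3 and 24.4 CPM in untreated, 28.7, 28.2 and 28.3 CPM in control and 39.7, 37.8 and 38.1 CPM in RVO pools. The RVO pools were above all others, with a log2 fold change of 0.64 ± 0.09 (edgeR, adjusted p = 3.25e-04), while control retinas differed from untreated retinas by 0.19 ± 0.08 (adjusted p = 0.0498). Lamc3, a gamma chain described in the photoreceptor matrix, was at 1.63 to 2.57 CPM in untreated, 2.17 to 2.98 CPM in control and 0.446 to 1.36 CPM in RVO pools. Its log2 fold change was -1.40 ± 0.42 in RVO (edgeR, adjusted p = 0.0180) and 0.32 ± 0.23 in control retinas (adjusted p = 0.235), and all 3 RVO pools were below all other pools.

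The basement membrane linkers and proteoglycans had median log2 fold changes of 2.02 in RVO and 1.55 in control retinas. In each, 3 of 4 were called higher, beside 27.4% and 27.2% of all genes tested. Agrn, which encodes agrin, the heparan sulfate proteoglycan that binds laminin and dystroglycan, was at 69.8, 72.6 and 68.1 CPM in untreated, 173, 185 and 179.6 CPM in control and 315, 235 and 269 CPM in RVO pools. The 3 groups were apart, with increases of 3.98-fold in RVO and 2.59-fold in control retinas (log2 fold changes 1.99 ± 0.11 and 1.37 ± 0.05; edgeR, adjusted p = 7.11e-06 and 8.07e-09). Hspg2, which encodes perlecan, the main proteoglycan of vascular basement membranes, was at 2.63, 2.58 and 3.57 CPM in untreated, 14.2, 14.6 and 10.1 CPM in control and 16.8, 22.0 and 15.9 CPM in RVO pools. It rose 6.30-fold and 4.43-fold (log2 fold changes 2.66 ± 0.20 and 2.15 ± 0.19), and all RVO pools were above all control pools.

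The nidogens, which bridge laminin and type IV collagen, are given pool by pool. Nid1 was at 3.09, 3.05 and 3.00 CPM in untreated, 17.7, 7.73 and 4.44 CPM in control and 7.17, 24.2 and 5.63 CPM in RVO pools. The untreated pools were close together, whereas control replicate 1 and RVO replicate 2 were far above the other pools of their groups. These were the 2 pools with the highest lens marker sums. They were also the highest of their groups in Tyrp1, Pmel, Mlana and Lrat of the 7 pigment markers, but not in both groups in Rpe65, Best1 and Ttr. Tyrp1 was at 76.2 CPM against 21.4 and 26.6 CPM in RVO and at 23.0 CPM against 13.2 and 8.49 CPM in control pools. Lrat in control replicate 1 was barely above the next control pool (28.04 against 27.99 CPM). The same 2 pools were highest in the summed pericyte and smooth muscle markers (158 CPM in RVO replicate 2 and 128 CPM in control replicate 1). RVO replicate 2 was further the highest RVO pool in the Mueller cell, endothelial and homeostatic microglia sums. It was the lowest in the neutrophil sum (34.5 CPM against 81.5 and 85.4 CPM). The log2 fold change of Nid1 was 2.04 ± 0.56 in RVO (edgeR, adjusted p = 0.0115) and 1.72 ± 0.43 in control retinas (adjusted p = 0.00330). Without RVO replicate 2, it was 1.13 ± 0.19 (adjusted p = 9.64e-05), and without control replicate 1, 1.01 ± 0.24 (adjusted p = 0.00196). Nid2 was at 4.90, 6.17 and 5.64 CPM in untreated, 8.77, 7.33 and 5.69 CPM in control and 12.4, 17.9 and 15.2 CPM in RVO pools, with all RVO pools above all others. It rose in RVO retinas (1.47 ± 0.17; adjusted p = 1.90e-04) and was 0.39 ± 0.17 in control retinas (adjusted p = 0.0615). Of the 7 lens markers, 5 were tested in RVO and 6 in control against untreated retinas. Called higher were 3 of the 5 and 6 of the 6, beside 27.4% and 27.2% of all genes. At an adjusted p under 0.05, all 5 were higher in RVO retinas, beside 34.4% of all genes. Lim2 was at or under 0.13 CPM in all pools. The part of lens tissue, pigment cells or pericytes in the values of the nidogens was not tested.

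**Figure D3:**
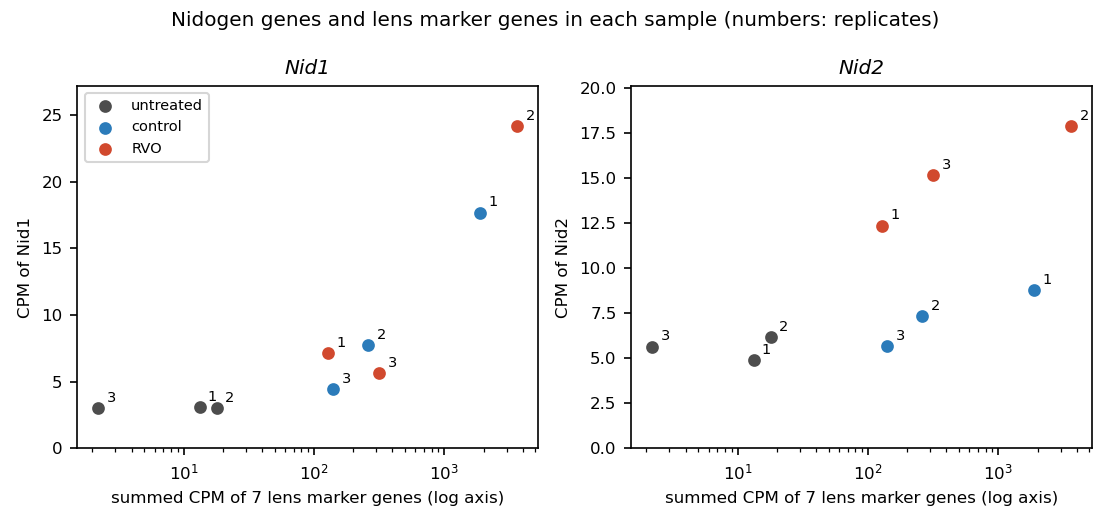
CPM of Nid1 (left) and Nid2 (right) against the summed CPM of 7 lens marker genes on a log axis, with each point a pool numbered by its replicate and coloured by group. Nid1 is highest in the 2 pools with the most lens marker RNA (24.2 CPM in RVO replicate 2 and 17.7 CPM in control replicate 1), whereas Nid2 separates RVO pools (12.4 to 17.9 CPM) from control pools (5.69 to 8.77 CPM).

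Of the adhesive glycoproteins, Fn1, which encodes fibronectin, was at 27.5 to 28.3 CPM in untreated, 63.9 to 79.8 CPM in control and 100.1 to 114 CPM in RVO pools. The groups were apart, with log2 fold changes of 1.98 ± 0.08 in RVO and 1.40 ± 0.09 in control retinas (edgeR, adjusted p = 2.34e-06 and 1.07e-07). Tnc, which encodes tenascin C, a matrix protein of development and injury, was at 24.0 to 27.4 CPM in untreated, 28.2 to 31.0 CPM in control and 44.4 to 60.4 CPM in RVO pools. Its log2 fold change was 0.98 ± 0.14 in RVO and 0.19 ± 0.08 in control retinas (edgeR, adjusted p = 4.27e-04 and 0.0551). Vtn was at 806, 805 and 846 CPM in untreated, 994, 931 and 1089.9 CPM in control and 865, 835 and 880.1 CPM in RVO pools. It was higher in all control than in all other pools, with a log2 fold change of 0.31 ± 0.07 against untreated retinas (edgeR, adjusted p = 0.00102), which turned to -0.19 (adjusted p = 0.0155) with the trends of gene length and GC content removed. In RVO retinas it was 0.10 ± 0.06 (adjusted p = 0.175).

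Markers of other cells that make or border matrix were summed in each pool. The 6 markers of choroidal and scleral fibroblasts summed to 8.07 to 10.8 CPM in untreated, 15.7 to 20.9 CPM in control and 33.9 to 40.9 CPM in RVO pools. The 8 endothelial markers summed to 166 to 172, 318 to 357 and 141 to 263 CPM, the 7 pericyte and smooth muscle markers to 93.1 to 108, 105 to 128 and 81.6 to 158 CPM, and the 4 astrocyte markers to 43.4 to 47.0, 284 to 462 and 252 to 369 CPM. Of the endothelial markers, 7 of 8 were called higher in control and 3 of 8 in RVO than in untreated retinas. Of all genes tested, 27.2% and 27.4% were called higher in these comparisons, so the 3 of 8 are near the share of all genes. The astrocyte sum was carried by Gfap and Aldh1l1, the 2 of 4 called higher in both comparisons, whereas Pax2 was at 0.286 to 1.40 CPM in all pools and S100b at 8.44 to 10.4 CPM in untreated and 2.77 to 6.24 CPM in RVO pools (edgeR, adjusted p = 0.0175). The pericyte and pigment sums overlapped between the groups, with 2 of 7 pericyte markers called higher and 1 lower, and 0 of 7 pigment markers higher and 1 lower (edgeR; 2 higher at an adjusted p under 0.05), in RVO than in untreated retinas. In that comparison, 27.4% of all genes were called higher and 24.6% lower, so the 2 of 7 pericyte markers are near the share called higher. The 6 Mueller cell markers summed to 4767 to 4996, 2955 to 3642 and 1859 to 2693 CPM, and the 7 markers of pigment epithelium were at 345 to 383, 321 to 363 and 247 to 514 CPM. The part of these cells in the values of the matrix genes was not tested.

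**Figure D4:**
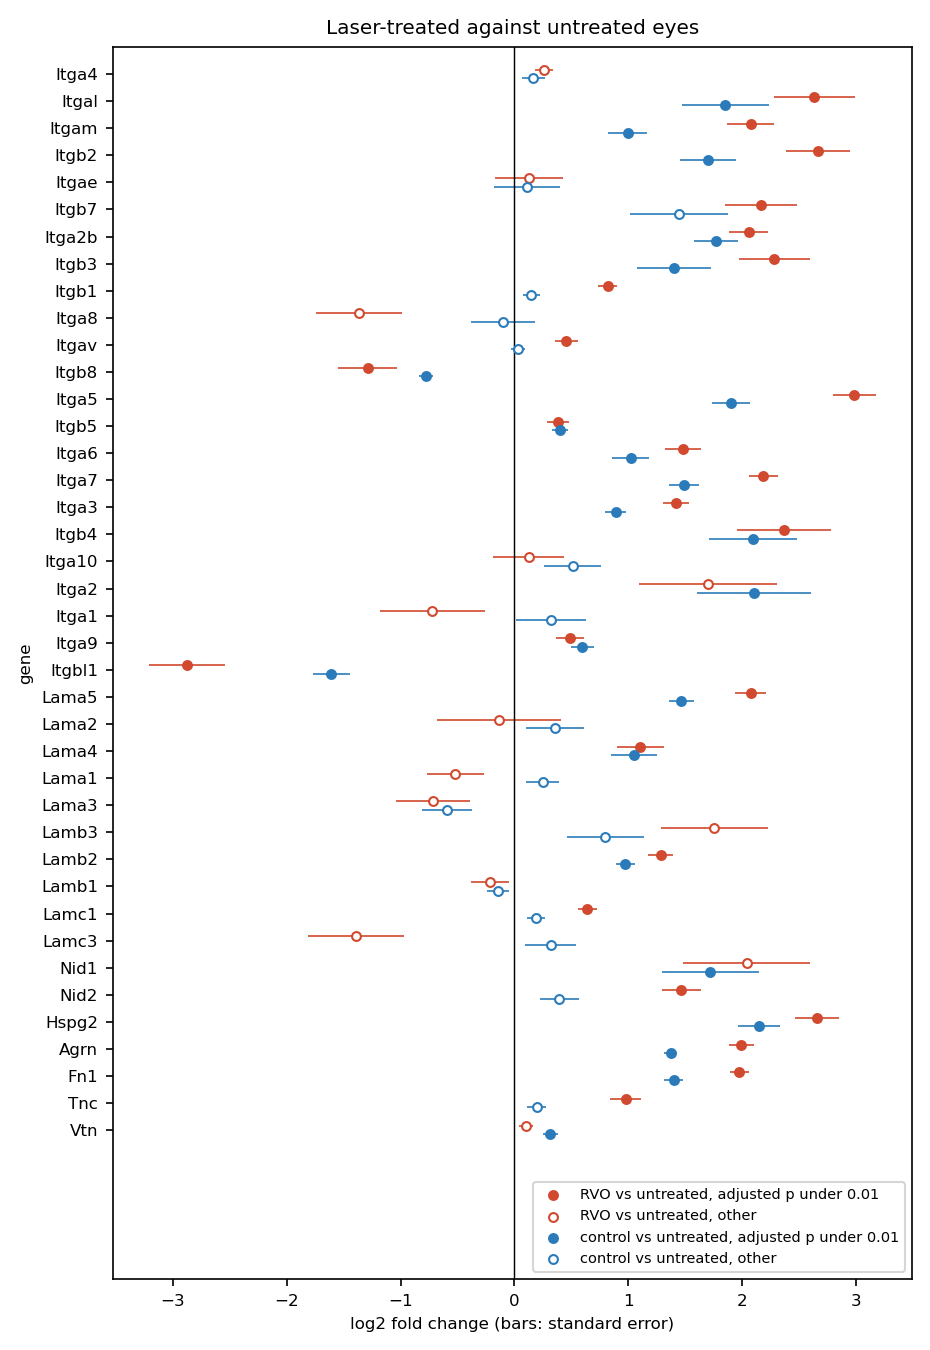
Log2 fold change of 40 members in RVO (red) and control retinas (blue) against untreated retinas, with bars for the standard error and filled points for an adjusted p under 0.01 (edgeR). Itgax was left out because it had 1 count in each untreated pool. Most red points lie to the right of their blue partners, and Itgbl1 and Itgb8 lie to the left of 0 in both.

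RVO and control retinas received the same laser scheme, at the large veins or between the large vessels. Closure of the veins and laser injury to the vein wall cannot be told apart in their comparison. At an adjusted p under 0.01, 5 members were higher in RVO than in control retinas and 0 were lower (edgeR's quasi-likelihood test), while 2.7% of all 16874 genes tested were called higher and 0.634% lower. At an adjusted p under 0.05, 16 members were higher and 4 lower, with 17.5% and 17.1% of all genes. The median log2 fold change of the members was 0.36, beside 0.0192 for all genes. The pools did not overlap for 26 members, 21 of them higher and 5 lower in RVO retinas, beside 52.5% of all genes tested. At an unadjusted p under 0.05, 28 of the 42 members differed, beside 7940 of all 16874 genes tested.

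The 5 members called higher were Itga5, Itga7, Itgb1, Lama5 and Lamc1. They encode a fibronectin receptor subunit, a laminin receptor subunit, the beta subunit both pair with, and a laminin alpha and a laminin gamma chain. No laminin beta chain was called, and Lamb2 was higher only at an adjusted p under 0.05 (edgeR). Itga5 was 2.10-fold (log2 fold change 1.07 ± 0.15; edgeR, adjusted p = 0.00922), Itga7 1.61-fold (0.69 ± 0.11; adjusted p = 0.00977) and Itgb1 1.58-fold higher (0.66 ± 0.09; adjusted p = 0.00895). Lama5 was 1.51-fold (0.60 ± 0.09; adjusted p = 0.00928) and Lamc1 1.36-fold higher (0.44 ± 0.07; adjusted p = 0.00928; edgeR). For each of the 5, every RVO pool was above every control pool. The calls lay close to the threshold and depended on the libraries used. Without RVO replicate 2, 14 members were higher and 7 lower, including all 5, and the share of all genes called rose from 3.34% to 36.4% (17.1% higher and 19.3% lower). Without RVO replicate 1, RVO replicate 3 or any 1 of the control pools, 0 members were called in either direction by edgeR, with 20 to 26 members at an unadjusted p under 0.05. In these 5 fits, 6100 to 6916 of 17149 to 17270 genes were at an unadjusted p under 0.05. Of all genes, 0 to 29 were called, so that the count of 0 is not particular to the members.

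With RVO replicate 2 and control replicate 1, the pools highest in lens markers, both left out, 13 members were higher and 4 lower, again including the 5, while 12.5% of all genes were higher and 16% lower. DESeq2's Wald test called 13 members higher and 2 lower, and 11% of all genes higher and 12.9% lower. Members called by DESeq2 as well as at an adjusted p under 0.05 by edgeR, included Itgam (1.07 ± 0.19; edgeR, adjusted p = 0.0121), Itgb2 (0.96 ± 0.17; 0.0120), Nid2 (1.06 ± 0.20; 0.0126), Tnc (0.77 ± 0.13; 0.0107), Agrn (0.61 ± 0.11; 0.0115) and Fn1 (0.57 ± 0.10; 0.0109). Without RVO replicate 2, Tnc, Agrn, Fn1, Nid2, Itgam and Itgb2 were also called by edgeR at 0.01. Itgax was 1.04 ± 0.36 (edgeR, adjusted p = 0.0562) and Hspg2 0.49 ± 0.18 (adjusted p = 0.0690), and neither passed the threshold of 0.05.

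The 4 members lower in RVO than in control retinas at an adjusted p under 0.05 were Lamc3 (-1.73 ± 0.39; edgeR, adjusted p = 0.0167), Itgbl1 (-1.27 ± 0.35; 0.0286), Itga8 (-1.27 ± 0.36; 0.0315) and Lama1 (-0.77 ± 0.24; 0.0429). In each of them, RVO replicate 2 was the RVO pool closest to the control pools. Without it, the log2 fold changes were -2.37, -1.82, -1.70 and -1.10, and Lama2, Itga1 and Itgb8 were called lower as well. Members with a log2 difference close to 0 were Itgae (0.00 ± 0.25), Itgb5 (-0.03 ± 0.08), Lama4 (0.05 ± 0.16) and Lamb1 (-0.08 ± 0.17).

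**Figure D5:**
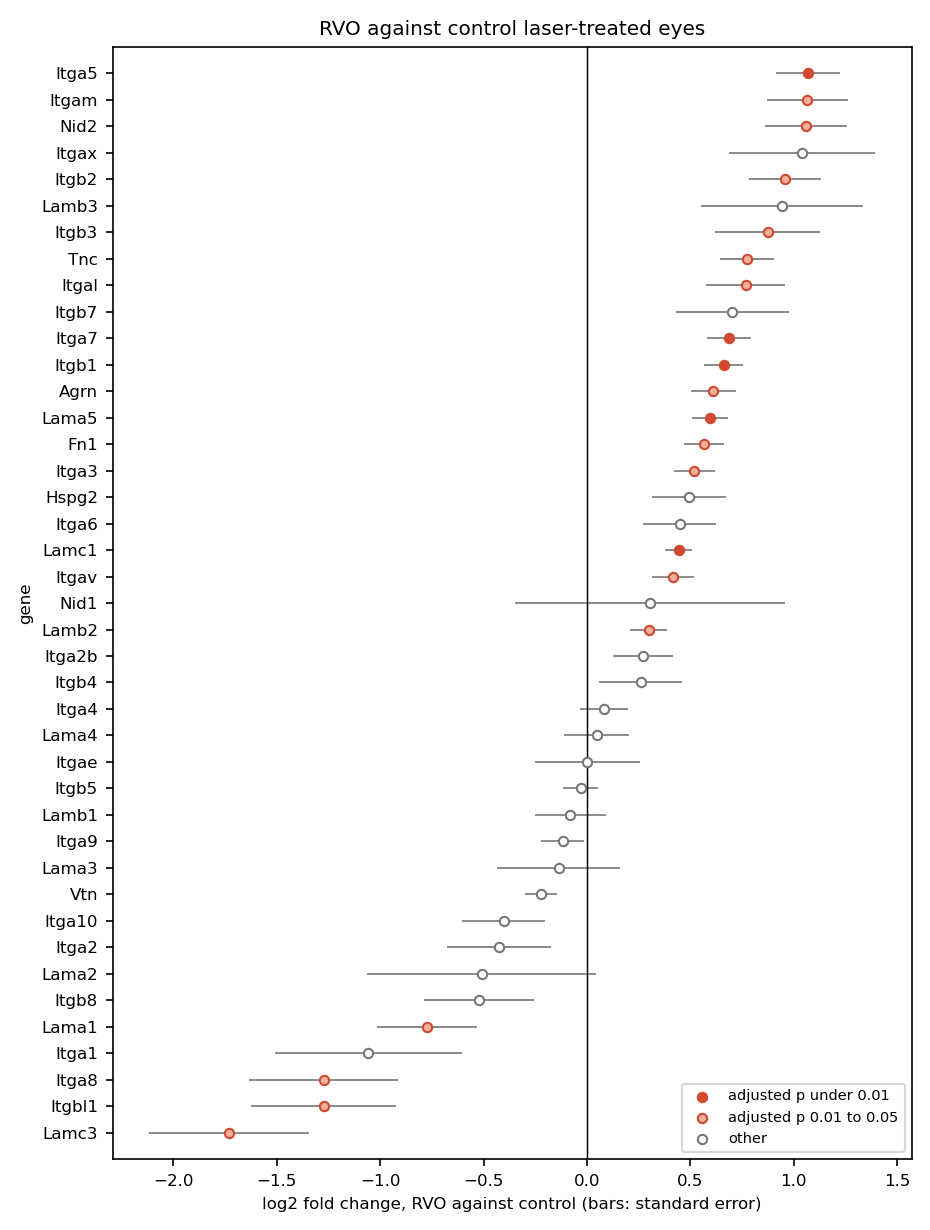
Log2 fold change of 41 members in RVO against control retinas, sorted, with bars for the standard error and colour for the adjusted p (edgeR). The 5 members under 0.01 lie between 0.44 and 1.07, those from 0.01 to 0.05 lie on both sides of 0, and Lamc3 is lowest with -1.73.

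Of the 5 genes, Itga5, Itgb1 and Lama5 had a promoter in the RefSeq table, and it is given here to show the sequence at the start of the members that differed between RVO and control retinas. The windows are again 300 bases long (build GRCm38.p6), at chr15:103366742-103367041 on the - strand for Itga5, chr8:128685404-128685703 on the + strand for Itgb1 and chr2:180225810-180226109 on the - strand for Lama5, with the same motifs in capitals.
Itga5: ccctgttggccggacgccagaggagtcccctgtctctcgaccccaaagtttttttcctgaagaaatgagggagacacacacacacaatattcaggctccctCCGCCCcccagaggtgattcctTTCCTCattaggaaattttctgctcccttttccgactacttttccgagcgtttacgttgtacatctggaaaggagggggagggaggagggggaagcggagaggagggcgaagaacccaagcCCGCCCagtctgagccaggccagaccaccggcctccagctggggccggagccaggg
Itgb1: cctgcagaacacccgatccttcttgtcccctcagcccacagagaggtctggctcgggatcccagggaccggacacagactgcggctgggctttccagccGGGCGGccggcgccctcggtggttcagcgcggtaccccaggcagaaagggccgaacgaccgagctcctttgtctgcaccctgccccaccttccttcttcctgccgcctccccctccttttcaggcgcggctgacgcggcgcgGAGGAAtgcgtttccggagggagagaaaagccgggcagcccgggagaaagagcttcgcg
Lama5: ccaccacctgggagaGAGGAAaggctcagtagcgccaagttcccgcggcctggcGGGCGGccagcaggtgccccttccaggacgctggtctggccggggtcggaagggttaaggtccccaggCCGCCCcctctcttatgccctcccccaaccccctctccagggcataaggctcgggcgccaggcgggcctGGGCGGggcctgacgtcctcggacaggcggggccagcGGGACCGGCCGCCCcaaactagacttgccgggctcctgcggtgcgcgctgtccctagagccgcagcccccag

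All 3 held the GC box, in 2 matches for Itga5, 1 for Itgb1 and 4 for Lama5, and all 3 held 1 match to the PU.1 core. Only Lama5 held a match to the loose NF-kB pattern, which overlaps with 1 of its GC boxes by 2 bases. As the pattern leaves its middle bases free, this match is no evidence of an NF-kB site. None of the 3 held the AP-1 or TATA box letters. By the annotation of GENCODE vM21, the 3 genes lie at chr15:103344286-103366763 (- strand), chr8:128685654-128733200 (+ strand) and chr2:180176373-180225859 (- strand), so each window covers the annotated start of its gene. Lamc1 and Itga7 lie at chr1:153218922-153332786 (- strand) and chr10:128933818-128958282 (+ strand).

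Genes around the members were described by 4 lists, whose counts are to be read beside the shares of all genes called that are given above. Of the intracellular adaptors and kinases of integrin adhesions, 23 were tested, of which 16 were higher and 1 lower in RVO, and 12 higher and 2 lower in control than in untreated retinas, with median log2 fold changes of 0.90 and 0.34. The largest called changes in RVO retinas were those of Ilk, the integrin-linked kinase (2.95 ± 0.51), and Flna, filamin A (2.04 ± 0.12), while Tln2, the neuronal talin, fell by 0.91 (SE 0.13; edgeR). In control retinas, Ilk was again highest (2.19 ± 0.46), followed by Fermt3, the kindlin of blood cells (1.15 ± 0.16). The size of the change of Ilk rested on few reads in untreated pools, at 0.0908, 0.156 and 0.857 CPM. Without untreated replicate 3, the log2 fold changes of Ilk were 4.53 ± 0.42 and 3.77 ± 0.48, and without untreated replicate 2, that in control retinas was 1.80 ± 0.49 and missed the threshold (edgeR, adjusted p = 0.0101). Between RVO and control retinas, 4 of the 23 were called higher and 0 lower, led by Actn1 (1.08 ± 0.16) and Flna (1.03 ± 0.12).

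Of 13 tested ligands of integrins outside the members, 11 were higher and 1 lower in RVO, and 8 higher and 1 lower in control retinas, with medians of 1.70 and 0.82. Lgals3, galectin 3 of macrophages and reactive glia, rose by 6.49 ± 0.23 and 4.67 ± 0.21 and Fbln2, fibulin 2, by 4.93 ± 0.30 and 2.98 ± 0.36 on the log2 scale. Npnt, nephronectin, fell by 1.13 (SE 0.23) in RVO and by 0.33 (SE 0.07) in control retinas. Between RVO and control retinas, 6 of the 13 were higher and 0 lower, with Fbln2 (1.94 ± 0.20) and Lgals3 (1.81 ± 0.16) at the top and a median of 1.13. The list was not chosen independently of earlier results, and its background is the 2.7% given above.

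Of 6 tested counter-receptors of leukocyte integrins, 3 were higher and 1 lower in RVO, and 4 higher and 1 lower in control retinas, with medians of 0.60 and 0.76. Icam1, the endothelial ligand of the beta 2 integrins, rose by 3.37 ± 0.36 in RVO and 1.98 ± 0.29 in control retinas, and Vcam1, the ligand of alpha 4 beta 1, rose by 1.71 ± 0.08 in RVO retinas. Icam2 was second in control retinas (1.45 ± 0.30), and Jam2, a junctional adhesion molecule, fell by 1.09 (SE 0.08) and 0.75 (SE 0.06). Between RVO and control retinas, 0 of 6 were called at 0.01 by edgeR, and 2 higher and 1 lower at 0.05.

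Of 16 other basement membrane genes, 10 were higher and 2 lower in RVO, and 11 higher and 1 lower in control retinas, with medians of 0.86 and 0.81. Col4a6, a type IV collagen chain, rose by 2.86 ± 0.18 and 1.96 ± 0.16, Col18a1, the precursor of endostatin, by 2.30 ± 0.11 in RVO and Col4a1 by 1.74 ± 0.10 in control retinas. Col4a3 fell by 1.78 (SE 0.30) and 1.21 (SE 0.11), and Smoc1 by 0.83 (SE 0.14) in RVO retinas. Between RVO and control retinas, 1 was higher (Col18a1, 1.32 ± 0.14; edgeR, adjusted p = 0.00668) and 1 lower (Smoc1, -0.85 ± 0.14; adjusted p = 0.00999).

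The members had long transcripts, with a median exon length of 6979 bp beside 4210 bp for all genes tested, and a median GC content of 53.1% beside 49.7%. When the trends of fold change with length and GC content were removed, 24 members were called higher and 3 lower for RVO against untreated retinas, with a median of 0.999, and 12 and 0 for RVO against control retinas. Of all genes, 20% and 24.5% were then called higher and lower in the first and 4.59% and 3.6% in the second of these comparisons. With at least 50 counts required in each group, 1 member, Itgb1, remained called between RVO and control retinas, with 1.64% of all genes called higher.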

How the data were processed

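RNA of 9 pools was sequenced as stranded poly(A) libraries with single reads of 50 nt. The authors mapped the reads with STAR 2.5.2b to the mouse genome with Gencode vM11 on build GRCm38, obtained gene-level counts from featureCounts (Subread 1.5.1) and deposited these raw counts. How reads matching several genes were handled and whether counting used the strand is not given in the sources used here, so genes with overlapping exons are uncertain. All sample columns were used (0 left out), and the 92 spike-in rows had 0 counts. Coordinates, exon lengths and GC content came from GENCODE vM21 on the same build, in which all 46 members were found, and promoters came from RefSeq (GRCm38.p6).

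Each pair of groups was fitted in R 4.3.3 with edgeR 4.0.16 (filterByExpr, TMM factors, quasi-likelihood test), p-values were corrected over all genes tested (Benjamini-Hochberg), and an adjusted p under 0.01 was called. Biological variation between pools (coefficient) came to 13.8% for RVO with untreated, 7.49% for control with untreated and 14.4% for RVO with control pools. A standard error is the log2 fold change divided by the square root of the F statistic. DESeq2 1.42.0 was an alternative. Fewer counts in untreated pools limit the precision of low genes there, and where each pool of a group had at most 3 counts, a fold is a lower bound that covers counting error only. In simulated counts with changed genes of 2-fold and 4-fold, the test found 90% and 98% between RVO and untreated, 97% and 99% between control and untreated, and 86% and 100% between RVO and control pools, with 2 to 4 false calls. The simulation changed few genes, all above a low level, gave every gene the same variation and held no deviating pool. Its shares therefore do not carry over to members of low level or to the pools measured here.

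Members, roles, pathway lists and marker lists were chosen with earlier results of these data known. Every member could be named, except that 1 member is counted in the totals, sums and medians over all members and is not reported here. Values per pool were given for the called members with the 12 largest changes per comparison and direction and for the member of each role highest per kb, and also for Nid2, which was singled out after its values were seen. Of the pathway lists, the 2 genes with the largest called change per direction and comparison were named.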

Additional observations from a re-analysis of the deposited data

Results flagged for a closer look

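For 2 members, the fitted log2 fold changes from untreated retinas had opposite signs in RVO and control retinas, and the difference between RVO and control retinas itself passed an adjusted p of 0.05. Lamc3 was -1.40 ± 0.42 (SE) in RVO and 0.32 ± 0.23 in control retinas on the log2 scale, with a difference of -1.73 ± 0.39 (edgeR, adjusted p = 0.0167), and all RVO pools were below all control pools. Lama1 was -0.52 ± 0.25 and 0.25 ± 0.14, with a difference of -0.77 ± 0.24 (edgeR, adjusted p = 0.0429). Neither was called against untreated retinas in either group, with adjusted p of 0.0180 and 0.235 for Lamc3 and 0.101 and 0.149 for Lama1 (edgeR). Without RVO replicate 2, the differences were -2.37 (adjusted p = 1.25e-04) and -1.10 (adjusted p = 4.97e-04). Over the other libraries left out in turn, the adjusted p of Lamc3 was 0.0377 to 0.0749 and that of Lama1 0.0761 to 0.146.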

How the results depend on the processing

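Of the single members called, the values in the other settings kept their direction except for 3, all with the trends of length and GC content removed: Itgb5 at -0.20 in RVO and -0.13 in control retinas and Vtn at -0.19 in control retinas, each against untreated retinas. The cause was not tested. With library size as the only scaling, the median of all genes moved to 0.221 against untreated in RVO, 0.186 in control retinas and 0.0693 between RVO and control retinas, so the changes of the members are to be read relative to these.

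Between RVO and untreated retinas, 4 members were lower in 1 fit of all 9 samples and 4 at an adjusted p under 0.05. Of all genes, 28.8% and 32.5% were lower in these settings. The median of the members was 1.56 with library size only, 1.41 with no filter, 0.934 with at least 50 counts in each group, 1.25 in the fit of all samples and 0.999 with the trends of length and GC removed. With 1 library left out, 1 to 9 members were lower, beside 15.8% to 31% of all genes, and the median was 1.19 to 1.37. Between control and untreated retinas, 1 member was lower in the fit of all 9 samples, beside 17.5% of all genes. The median of the members was 1.02 with library size only, 0.481 with at least 50 counts, 0.609 with the trends removed and 0.657 to 0.893 with 1 library left out.

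Between RVO and control retinas, where the calls were close to the threshold, the number of members higher and lower was 8 and 0 with library size only, 13 and 2 by DESeq2's Wald test, 12 and 1 with no filter, 1 and 0 with at least 50 counts, 13 and 2 in the fit of all 9 samples, 12 and 0 with the trends removed, 13 and 4 without both libraries highest in lens markers (an alternative chosen after seeing the data) and 16 and 4 at an adjusted p under 0.05. The calls over all genes moved as well, from 3.34% to 5.29%, 23.9%, 11.1%, 1.85%, 22.5%, 8.18% and 28.5% in the first 7 of these settings. With 1 library left out, 0 to 14 were higher and 0 to 7 lower, beside 0% to 36.4% of all genes called, and the median was 0.284 to 0.436. It was 0.25 without both libraries highest in lens markers.

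With the replicate block, 0 members were called between RVO and control retinas, where edgeR then called 0 of all genes. In this fit, 26 members and 7227 of all 16874 genes were at an unadjusted p under 0.05. Against untreated retinas, the block left 25 higher and 2 lower members in RVO and 23 and 2 in control retinas. Of all genes, it left 26.2% higher and 24% lower in RVO and 27.2% and 25.1% in control retinas. The replicate numbers of the labels are not said to mark the same mice. The correlations of same-numbered RVO and control pools were -0.128, -0.144 and 0.0756. No RVO pool correlated best with the control pool of its own number. Among the control pools, only control replicate 3 correlated best with the RVO pool of its own number. Depth limits the low members most: Itgax had 1 count in each untreated pool, and 4 members were not tested.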
